A study of Mus musculus with 8 samples.

Results

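The proteasome subunit genes were described here as every protein-coding gene whose symbol starts with Psma, Psmb, Psmc or Psmd followed by a digit, leaving out the inducible Psmb8 and Psmb9 and pseudogenes. These were 38 of the 55335 genes in the tables, 17 of the core particle (Psma and Psmb) and 21 of the regulatory particle (Psmc and Psmd). RNA came from mouse prostate epithelium that the series describes as sorted EpCAM+, CD24A+ and CD49Flow cells, and 8 libraries in 4 groups of 2 were measured. The groups were PP mice given sham treatment at 3.5 months (PP sham), PPK mice, which also carry Kmt2cPC-/-, given sham treatment at 3.5 months (PPK sham), PP mice given ADT at 6.5 months (PP ADT) and PPK mice given ADT at 6.5 months (PPK ADT). ADT is the usual short form of androgen deprivation therapy, although the labels do not spell it out. All 4 groups share a further gene deletion, so none is a wild type. ADT and the greater age came together in these mice, so their effects cannot be told apart. The promoter that drives the deletions is not given in the sources used here. Libraries A and B of a group are not said to come from separate mice, so p-values cover the spread between the libraries alone, and that spread may be technical.

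The proteasome degrades proteins tagged with ubiquitin chains. Its barrel-shaped core stacks rings of alpha subunits, which gate the entrance, outside rings of beta subunits, of which Psmb5, Psmb6 and Psmb7 carry the proteolytic sites. The regulatory particle caps the core: a base of Psmc ATPases and Psmd subunits unfolds the substrate, and a lid of Psmd subunits removes the ubiquitin chain. In cells exposed to interferon, Psmb8, Psmb9 and Psmb10 replace Psmb5, Psmb6 and Psmb7 in the immunoproteasome, which makes peptides for antigen presentation. The transcription factor Nfe2l1 is known in mammalian cells to raise many subunit genes together when proteasome activity is blocked, through antioxidant response elements in their promoters.

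Promoter sequences are shown for Psmb5 and Psmb6, which hold the core of that element, and for Psmb10, the member with the widest change, which holds none. Each line gives the 100 bases before the gene's start in RefSeq on GRCm38.p6, read along the gene's strand, and capitals mark TGACNNNGC.
Psmb5, chr14:54617996-54618095, minus strand: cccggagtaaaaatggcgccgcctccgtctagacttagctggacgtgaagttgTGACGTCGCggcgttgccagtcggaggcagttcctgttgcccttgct
Psmb6, chr11:70525257-70525356, plus strand: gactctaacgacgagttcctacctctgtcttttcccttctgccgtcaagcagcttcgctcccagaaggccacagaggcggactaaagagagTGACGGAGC
Psmb10, chr8:105938393-105938492, minus strand: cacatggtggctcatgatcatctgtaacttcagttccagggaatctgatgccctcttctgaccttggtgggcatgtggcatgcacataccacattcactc
The match in Psmb5 begins 47 bases before the start and that in Psmb6 begins 9 bases before it. RefSeq windows of 300 bases (250 before to 50 after the start) were found for 31 of the 38 members, 33 windows in all, and searched on both strands. TGACNNNGC was found in 5 windows (15.2%), those of Psmb5, Psmb6, Psmc6, Psmd12 and Psmd9, against 12.4% of all 32851 windows. The CCAAT box, spelled CCAAT, was found in 13 windows (39.4%), against 37.4% of all windows. These are matches of letters in a window, and binding was not measured.

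Kmt2c, the targeted gene, read 13.3 and 13.9 FPKM (fragment counts divided by gene length and by library total) in PP sham and 8.67 and 8.15 in PPK sham, and 10.3 and 9.33 in PP ADT against 6.6 and 6.36 in PPK ADT. Both genotypes therefore differed in the labelled direction, with RNA still measured in PPK. Log2 values of libraries correlated at 0.986 to 0.988 within groups and 0.805 to 0.958 between groups, across genes. The luminal keratin Krt8 read 1263 to 1883 FPKM in the PP libraries and PPK sham, and 294 and 286 in PPK ADT. The basal keratin Krt5 read 21.0 to 96.8 FPKM in those 6 libraries and 3242 and 3243 in PPK ADT. The PPK ADT libraries thus stand apart in the keratins of the cells sampled, and in bulk RNA a shift in cell type and a change of RNA per cell cannot be told apart. Of 7 leukocyte markers all stayed under 1 FPKM in every library, while 7 macrophage markers summed to 15.9 to 16.6 FPKM in PP sham and to 35.8 to 40.5 FPKM in the other groups. The 6 fibroblast markers summed to 4.54 to 5.85 FPKM in the PP libraries, 17.0 and 17.7 in PPK sham, and 28.8 and 30.0 in PPK ADT. The 3 smooth muscle markers summed to 1.5 to 2.07 FPKM in PP, 5.18 and 5.54 in PPK sham, and 11.3 and 11.5 in PPK ADT. The 4 endothelial markers were highest in PPK sham, at 3.29 and 3.77 FPKM against 0.495 to 1.65 elsewhere. Fibroblast, smooth muscle and endothelial lists each held 1 or 2 markers under 1 FPKM everywhere and none at 0. The fibroblast and smooth muscle sums were thus highest in PPK ADT, the group in which Psma7 and Psmd2 were highest and Psmb10 lowest, and their part in these results was not tested.

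With FPKM as deposited, proteasome RNA was abundant and its summed level varied little. Among the 38 members, 35 reached 1 FPKM in every library and were tested, 15 of the core and 20 of the regulatory particle. The germline alpha gene Psma8 was listed at 0 in all libraries, the thymic Psmb11 did not exceed 0.0110 FPKM, and Psmc3ip, matched by its symbol although it is not a subunit, lay at 0.363 to 0.836 FPKM. Mean levels over the 8 libraries ran from 13.8 to 52.3 FPKM in the core (median 24.0) and from 1.88 to 60.2 FPKM in the regulatory particle (median 23.3). Psma6 at 49.6, Psmb5 at 52.3, Psmc5 at 60.2 and Psmd2 at 46.8 FPKM were the highest of their families. Core genes together summed to 437 to 479 FPKM per library and regulatory genes to 486 to 524 FPKM, so their ratio stayed between 0.870 and 0.923. All members together made up 0.299% to 0.333% of the summed FPKM of a library. The PP ADT libraries were the highest, at 0.331% and 0.333%, against 0.299% to 0.309% elsewhere.

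**Figure D1:**
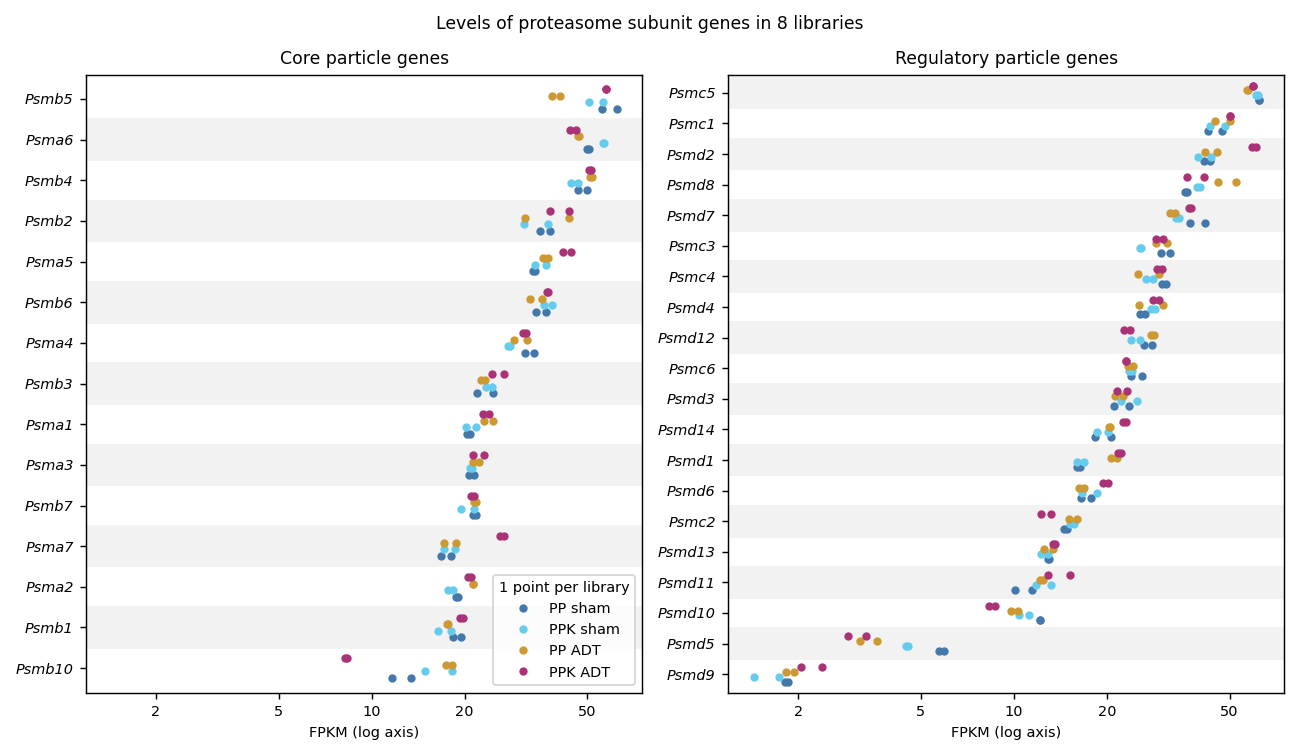
Each point is 1 library, placed by FPKM on a log axis, with the 15 core genes on the left and the 20 regulatory genes on the right, coloured by group. Most genes hold their place in all 8 libraries; Psmb10, Psma7, Psmd2 and Psmd5 are among those whose groups separate.

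The ratio of the highest to the lowest group mean had a median of 1.19 over the 35 genes. It lay under 1.5 in 32 of them (91.4%), against 39.8% of the 7067 genes with a mean of at least 5 FPKM and no group at 0, whose median ratio was 1.65. Of the 35 genes, Psmd5 and Psmd9 had means under that limit, at 4.20 and 1.88 FPKM. These ratios are of FPKM as deposited and were not taken under another scaling. Psmb10 had the highest ratio at 2.15, followed by Psmd5 at 1.88, Psma7 at 1.52 and Psmb5 at 1.49. Psmb7 and Psma3 at 1.06 and Psmd13 at 1.07 had the lowest. For Psmb7 the libraries within a pair differed by up to 1.10-fold, wider than its group means. The widest pair was Psmb2 in PP ADT, at 31.5 and 43.7 FPKM. Psmd13 shares its strand with the pseudogene Gm15542 (32.2 to 56.9 FPKM), so its level is uncertain.

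Between 6 and 17 of the 35 genes passed per comparison (limma over 14000 genes, Benjamini-Hochberg adjusted p under 0.05, two-sided), with small changes in both directions. In sham mice PPK exceeded PP in 2 genes and fell below it in 4, so 17.1% passed, against 28.6% of all genes tested (13.7% higher and 14.9% lower) and 36.5% of genes with a mean of at least 5 FPKM. In ADT mice PPK was higher in 6 and lower in 5 (31.4%), against 59.6% of all genes (32.5% higher, 27.1% lower) and 68.7% of those at 5 FPKM or more. With ADT and age, 5 genes rose and 6 fell in PP (31.4%), against 44.2% (19.1% higher, 25.1% lower) and 53.5%. In PPK 12 rose and 5 fell (48.6%), against 62.6% (31.9% higher, 30.7% lower) and 70.6%. The genotype effect differed between ADT and sham in 11 genes, 7 with a higher and 4 with a lower effect in ADT (31.4%), against 52.8% (30% higher, 22.8% lower) and 61.8%. Comparisons share groups: each of the 4 groups enters 2 of the pairwise comparisons.

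These splits depend on how the libraries are scaled, because summed FPKM ran from 284015 in a PP ADT library to 333977 in a PPK ADT library. With each library scaled to the same sum (TPM), the splits of higher and lower genes became 2 and 1 for the genotypes in sham, 3 and 18 for the genotypes in ADT, 10 and 2 for ADT and age in PP, 4 and 8 for ADT and age in PPK, and 2 and 14 for the difference. All 14000 genes tested then split, in the same order, as 2132 and 1772, 3397 and 5227, 3495 and 2537, 3713 and 5134, and 2915 and 4400. That scaling moved the median of all genes by -0.16 on the log2 scale for PPK against PP in ADT and by -0.20 for the difference. Relative to all genes, the members' median there was then -0.04 and -0.07, against 0.01 and -0.02 as deposited. The share of members passing for PPK against PP in ADT became 60%, near the 61.6% of all genes under the same scaling. With median-of-ratios scaling the split for ADT against sham in PP was 7 and 4, and that for the difference 4 and 5. Over all genes those splits were 3170 and 2878, and 3753 and 3541. No direction can therefore be given for the subunit genes as a group. Of the 56 single calls over the 5 comparisons, 23 did not pass under TPM scaling and 4 of these changed sign. Median-of-ratios scaling ended 6 calls and quantile normalization 7, and none changed sign under either. Leaving out 1 library ended 28, and where the p-value of such a call is given, the library is named with it.

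The median size of the log2 change was 0.07 for PPK against PP in sham (0.19 over all genes), 0.12 in ADT (0.39), 0.09 for ADT against sham in PP (0.27), 0.16 in PPK (0.42) and 0.15 for the difference (0.46). Changes under 1.5-fold were found in 35, 34, 34, 34 and 33 of the 35 genes in the same order, against 87.7%, 64.2%, 79.2%, 61.7% and 59.2% of all genes. Under TPM scaling the median sizes were 0.09, 0.17, 0.16, 0.10 and 0.20, against 0.18, 0.41, 0.26, 0.43 and 0.46 over all genes. That scaling moved the members' medians more than those of all genes, and they remained below those of all genes in each comparison.

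**Figure D2:**
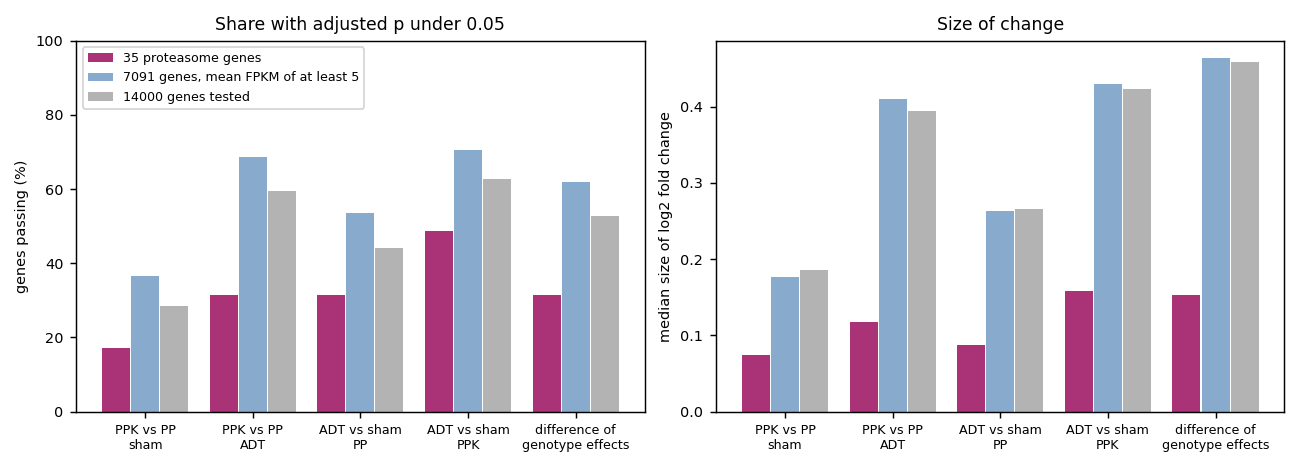
The left panel gives the percent of genes with an adjusted p under 0.05 in each comparison and the right panel the median size of the log2 change, for the 35 proteasome genes, 7091 genes with a mean of at least 5 FPKM, and all 14000 genes tested. The proteasome bars are the lowest in every comparison with FPKM as deposited; under TPM scaling the share for PPK against PP in ADT rose to 60%, against 61.6% of all genes.

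Among the catalytic core genes, Psmb5 changed while Psmb6 and Psmb7 passed in no comparison with FPKM as deposited. Psmb5 (chr14:54614119-54618022, minus strand) encodes the chymotrypsin-like site. Its levels were 62.2 and 55.8 FPKM in PP sham, 50.8 and 56.0 in PPK sham, 40.8 and 38.4 in PP ADT, and 57.3 and 57.3 in PPK ADT. Both PP ADT libraries lay below the other 6. The log2 change with ADT and age in PP was -0.56 ± 0.07 (SE, limma adjusted p = 0.00081), while in PPK it was 0.10 ± 0.07 (adjusted p = 0.23). PPK exceeded PP in ADT by 0.52 ± 0.07 (limma adjusted p = 0.00066), and this genotype effect exceeded that in sham mice by 0.66 ± 0.10 (adjusted p = 0.0014).

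Psmb6 (chr11:70525367-70527858, plus strand) encodes the caspase-like site and read 34.1 and 36.8 FPKM in PP sham, 38.4 and 36.2 in PPK sham, 35.7 and 32.5 in PP ADT, and 37.0 and 37.2 in PPK ADT. The PPK ADT pair lay within the PPK sham range, and PP sham overlapped both PPK sham and PP ADT; no pairwise change beyond 1.2-fold lay within the 95% intervals. Psmb7 (chr2:38588036-38644087, minus strand) encodes the trypsin-like site and read 21.8 and 21.3 FPKM in PP sham, 21.5 and 19.5 in PPK sham, 21.8 and 21.5 in PP ADT, and 21.0 and 21.5 in PPK ADT. With FPKM as deposited its group means differed least among the members, and its intervals reached no further than 1.15-fold. The intervals of Psmb6 and Psmb7 do not cover the choice of scaling. Summed FPKM was 284015 and 286111 in PP ADT and 329204 and 333977 in PPK ADT, so TPM scaling lowers PPK ADT against PP ADT.

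Psmb10, the inducible counterpart of Psmb7, moved most of all members, and with ADT and age it moved in opposite directions in the 2 genotypes. Psmb10 (chr8:105935735-105938444, minus strand) read 11.6 and 13.5 FPKM in PP sham, 14.8 and 18.2 in PPK sham, 18.2 and 17.4 in PP ADT, and 8.22 and 8.32 in PPK ADT. Both PPK ADT libraries lay below the other 6, and the PP sham pair lay below the PPK sham and PP ADT pairs, which overlap. With ADT and age it rose in PP by 0.48 ± 0.11 on the log2 scale (SE, limma adjusted p = 0.011) and fell in PPK by 0.91 ± 0.11 (adjusted p = 0.00034). PPK lay below PP in ADT by a log2 change of -1.02 ± 0.11 (adjusted p = 0.00022), a fold of 0.494 on the FPKM + 1 scale. In sham mice PPK was higher by 0.37 ± 0.11 (adjusted p = 0.041), a call that 9 of the 18 alternative fits did not keep. Among these were the fits without PP sham A (0.27), PPK sham B (0.23) or any 1 of the 4 ADT libraries (adjusted p of 0.068 to 0.18 over the 6). The rise in PP missed the threshold without PP sham A (0.38, adjusted p = 0.062) or PP ADT A (0.45, adjusted p = 0.060). The genotype effects differed by -1.39 ± 0.15 (limma adjusted p = 0.00034).

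Relative to the constitutive gene it replaces, Psmb10 stood at 0.533 and 0.632 of Psmb7 in PP sham, 0.691 and 0.937 in PPK sham, 0.832 and 0.809 in PP ADT, and 0.391 and 0.387 in PPK ADT. Psmb8 over Psmb5 followed the same order of extremes, at 0.306 and 0.351, 0.644 and 0.572, 0.675 and 0.722, and 0.203 and 0.201 for the same libraries. Psmb9 over Psmb6 was 0.208 and 0.173, 0.317 and 0.341, 0.291 and 0.256, and 0.106 and 0.0848. In each ratio the PPK ADT pair was the lowest and the PP sham pair the next. A factor applied to a whole library leaves these ratios as they are. Macrophages also express immunoproteasome genes, and their markers summed to 15.9 and 16.6 FPKM in PP sham, 38.6 and 39.2 in PPK sham, 35.8 and 40.5 in PP ADT, and 37.2 and 38.8 in PPK ADT. That sum was low in PP sham like the ratios and was not low in PPK ADT, but Cd68 and Lyz2 made up most of it and its markers parted there. Between PP ADT and PPK ADT, C1qa went from a mean of 4.59 to 2.40 FPKM, C1qb from 4.47 to 2.91 and C1qc from 2.06 to 1.30, the direction of the ratios, and all 3 passed as lower. Lyz2 passed as higher and Cd68, at 18.5 and 18.8 FPKM, did not pass. Of the 7 macrophage markers, 5 passed the filter on low values and none was at 0. Their part in the result was not tested.

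**Figure D3:**
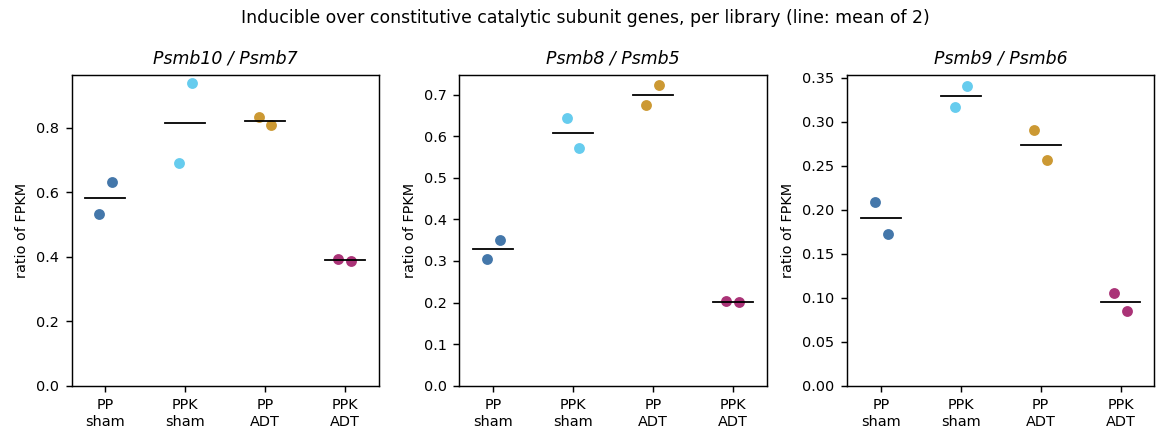
Each point is the FPKM of an inducible catalytic gene over that of the constitutive gene it replaces in 1 library, with a line at the mean of the 2 libraries of a group. All 3 ratios are lowest in PPK ADT, where Psmb8 over Psmb5 is 0.203 and 0.201 and Psmb10 over Psmb7 is 0.391 and 0.387.

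The alpha ring genes gave 5 higher and 1 lower of 7 for ADT against sham in PPK, and 2 higher and 1 lower in PP, with FPKM as deposited. These were 85.7% and 42.9% of the 7, against 62.6% and 44.2% of all genes. Under TPM scaling the PPK rises of Psma1, Psma2 and Psma4 did not pass (log2 changes of 0.03, 0.07 and 0.04), and the PP fall, of Psma6, became 0.02. The ring moved unevenly, and Psma7 stood out. Psma7 (chr2:180036374-180042433, minus strand) read 16.8 and 18.0 FPKM in PP sham, 18.6 and 17.2 in PPK sham, 17.1 and 18.7 in PP ADT, and 26.1 and 26.8 in PPK ADT. Both PPK ADT libraries lay above the other 6, which overlap one another. It exceeded PP ADT by 0.54 ± 0.06 (SE, limma adjusted p = 0.00043) and PPK sham by 0.54 ± 0.06 (adjusted p = 0.0004). The genotype effects differed by 0.50 ± 0.09 (adjusted p = 0.0039). Under TPM scaling that difference was 0.25, close to the threshold (limma adjusted p = 0.046), and the excess over PP ADT was 0.33 (adjusted p = 0.0034).

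Psma6 (chr12:55384222-55418454, plus strand), the highest alpha gene, read 49.9 and 50.6 FPKM in PP sham, 56.8 and 56.2 in PPK sham, 46.9 and 46.5 in PP ADT, and 43.9 and 46.0 in PPK ADT. PPK sham was the highest pair and PPK ADT the lowest, with no overlap between groups. Psma6 rose with Kmt2c loss in sham mice by 0.17 ± 0.03 (limma adjusted p = 0.011; 0.063 without PP sham A and 0.056 without PPK sham A) and fell in PPK with ADT and age by 0.32 ± 0.03 (adjusted p = 0.00019). Psma4 (chr9:54950790-54958030, plus strand) read 33.6 and 31.4 FPKM in PP sham, 28.0 and 27.6 in PPK sham, 29.0 and 31.8 in PP ADT, and 30.9 and 31.6 in PPK ADT. Its PPK sham pair lay below the other 6 libraries, at a log2 change of -0.22 ± 0.06 from PP sham (limma adjusted p = 0.029). That call was lost without PP sham A or either PPK sham library (adjusted p of 0.09 to 0.14) and under TPM scaling (adjusted p = 0.053). Of the other alpha genes, Psma5 and Psma2 rose with ADT and age in PPK by 0.28 ± 0.05 and 0.20 ± 0.04 (limma adjusted p = 0.0031 and 0.0044). Psma3 passed in no pairwise comparison with FPKM as deposited. Under TPM scaling it was lower in PPK than in PP in ADT (-0.18, limma adjusted p = 0.016).

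The noncatalytic beta genes Psmb1, Psmb2, Psmb3 and Psmb4 build the inner rings without a working protease site. With FPKM as deposited, none of the 4 passed in a pairwise genotype comparison or in PP with ADT. For the difference of the genotype effects Psmb1 passed at 0.27 (limma adjusted p = 0.028), but not under TPM scaling (0.03, adjusted p = 0.81). That of Psmb4 did not pass as deposited and was -0.19 under TPM scaling (adjusted p = 0.039). Psmb1 and Psmb4 rose in PPK with ADT and age by 0.18 ± 0.06 and 0.16 ± 0.04 (limma adjusted p = 0.033 and 0.020). Both calls ended under TPM scaling (0.05 and 0.03). That of Psmb1 was also lost without PPK sham A or any 1 of the 4 ADT libraries (adjusted p of 0.052 to 0.15), and that of Psmb4 without PPK sham B or either PPK ADT library (adjusted p of 0.054 to 0.10). Psmb1 read 16.4 to 19.8 FPKM and Psmb4 44.3 to 51.9 FPKM over the 8 libraries.

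**Figure D4:**
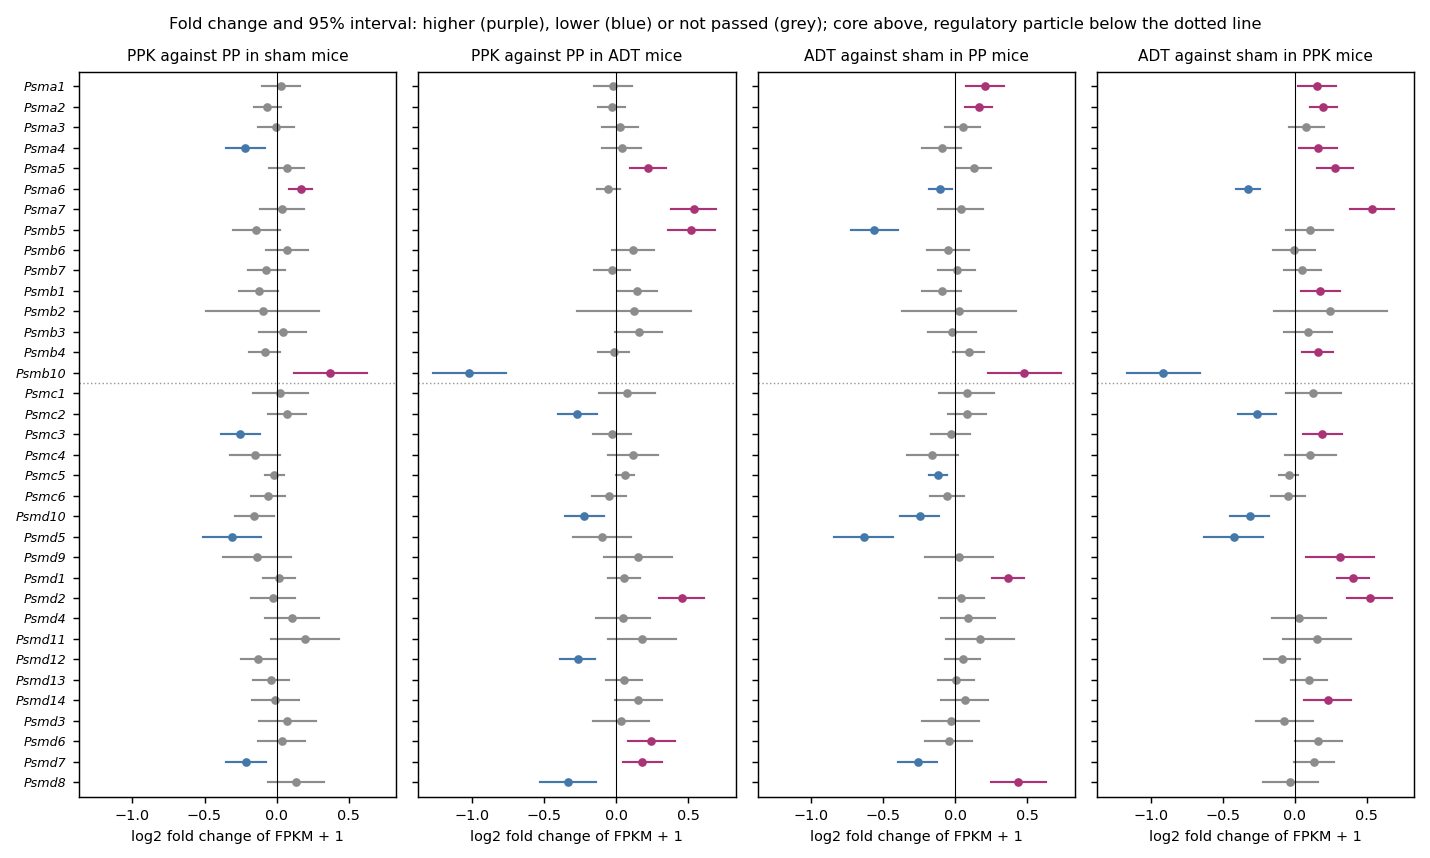
Points give the log2 fold change of FPKM + 1 and bars its 95% interval for the 35 genes in the 4 pairwise comparisons, core above and regulatory particle below the dotted line; purple passed as higher, blue as lower and grey did not pass. Most points lie close to 0, and Psmb10 reaches -1.02 for PPK against PP in ADT; under TPM scaling Psma6 and Psmc5 in PP and Psmd7 in ADT change sign.

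The 6 base ATPase genes, whose ring unfolds substrates, gave 1 lower and none higher between the genotypes in sham, between the genotypes in ADT, and in PP with ADT and age (16.7% each, against 28.6%, 59.6% and 44.2% of all genes). In PPK with ADT and age 1 was higher and 1 lower (33.3%, against 62.6%). Psmc5 (chr11:106256154-106263120, plus strand), the highest proteasome gene, read 62.1 and 62.3 FPKM in PP sham, 62.0 and 61.1 in PPK sham, 57.2 and 57.2 in PP ADT, and 59.8 and 59.6 in PPK ADT. Its pairs were so close that a log2 change of -0.12 ± 0.03 with ADT and age in PP passed (limma adjusted p = 0.012), although it was 0.0045 under TPM scaling and missed the threshold without PP sham B (adjusted p = 0.054). Psmc2 was lower in PPK than in PP in ADT by -0.27 ± 0.06 (adjusted p = 0.0057) and fell in PPK with ADT and age by 0.26 ± 0.06 (adjusted p = 0.0060). It read 13.2 and 12.3 FPKM in PPK ADT and 14.5 to 16.1 FPKM elsewhere, without overlap. Psmc3 was lower in PPK than in PP in sham by -0.25 ± 0.06 (adjusted p = 0.017; 0.065 to 0.089 without PP sham B or either PPK sham library). It rose in PPK with ADT and age by 0.19 ± 0.06 (adjusted p = 0.022), a call lost without either PPK sham library or PPK ADT A (adjusted p of 0.069 to 0.10) and under TPM scaling (0.07, adjusted p = 0.36). With FPKM as deposited, Psmc6, which holds TGACNNNGC in its window, did not pass, and its intervals reached no further than 1.13-fold. Under TPM scaling its difference of the genotype effects was -0.24 and passed (limma adjusted p = 0.026).

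Of the base genes outside the ATPase ring, Psmd1 and Psmd2 are large scaffold subunits, and Psmd4 is a ubiquitin receptor. Psmd2 (chr16:20651652-20663414, plus strand) read 43.3 and 41.3 FPKM in PP sham, 39.6 and 43.5 in PPK sham, 45.6 and 41.5 in PP ADT, and 58.9 and 61.1 in PPK ADT. As for Psma7, both PPK ADT libraries lay above the other 6, which overlap. The log2 change was 0.45 ± 0.06 against PP ADT (SE, limma adjusted p = 0.00098) and 0.52 ± 0.06 against PPK sham (adjusted p = 0.00047), and the genotype effects differed by 0.48 ± 0.09 (adjusted p = 0.0047). Under TPM scaling that difference was 0.23 and missed the threshold (adjusted p = 0.084). Psmd1 (chr1:86064387-86139151, plus strand) read 16.3 and 16.1 FPKM in PP sham, 16.8 and 16.0 in PPK sham, 20.7 and 21.6 in PP ADT, and 22.3 and 21.8 in PPK ADT. All 4 ADT libraries exceeded all 4 sham libraries. Psmd1 rose with ADT and age by 0.36 ± 0.05 in PP (limma adjusted p = 0.00097) and by 0.41 ± 0.05 in PPK (adjusted p = 0.00031). Psmd4 passed in no comparison with FPKM as deposited.

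Among the 8 lid genes 1 to 4 passed per pairwise comparison (12.5% to 50%), against 28.6% to 62.6% of all genes. Psmd8 (chr7:29174188-29180701, minus strand) read 35.8 and 36.3 FPKM in PP sham, 40.1 and 39.2 in PPK sham, 52.7 and 46.0 in PP ADT, and 41.5 and 36.4 in PPK ADT. The PP ADT pair lay above the other 6 libraries but was itself wide. It rose in PP by 0.44 ± 0.08 (SE, limma adjusted p = 0.0052) and was lower in PPK ADT than in PP ADT by -0.33 ± 0.08 (adjusted p = 0.011). The latter missed the threshold without PP ADT A (adjusted p = 0.054) or PPK ADT B (adjusted p = 0.057). Psmd7 (chr8:107580381-107588464, minus strand), the partner of the lid's deubiquitinase, read 41.7 and 37.2 FPKM in PP sham, 34.2 and 33.4 in PPK sham, 32.1 and 33.3 in PP ADT, and 37.5 and 37.0 in PPK ADT. The PP sham and PPK ADT pairs overlap and lie above both others. Psmd7 fell with ADT and age in PP by 0.26 ± 0.06 (limma adjusted p = 0.011; 0.059 without PP ADT A), and PPK lay below PP in sham by -0.21 ± 0.06 (adjusted p = 0.033). The sham call was lost without any 1 of 7 libraries, all but PP sham B (adjusted p of 0.053 to 0.13), and under TPM scaling neither call passed (adjusted p = 0.11 and 0.073). In ADT mice PPK was higher by 0.18 ± 0.06 (adjusted p = 0.030), a call lost without any 1 of the 4 ADT libraries (adjusted p of 0.063 to 0.13), and its direction turned under TPM scaling (-0.03). Psmd14, the deubiquitinase itself, rose in PPK with ADT and age by 0.23 ± 0.07 (adjusted p = 0.024; 0.22 under TPM scaling and 0.068 to 0.12 without PPK sham B or either PPK ADT library). Psmd12, another holder of TGACNNNGC, was lower in PPK than in PP in ADT by -0.27 ± 0.05 (adjusted p = 0.0040).

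The symbols Psmd5, Psmd9 and Psmd10 name chaperones that assemble the base and leave the finished particle. Psmd5 (chr2:34849734-34874968, minus strand) read 5.92 and 5.73 FPKM in PP sham, 4.54 and 4.46 in PPK sham, 3.61 and 3.18 in PP ADT, and 3.31 and 2.89 in PPK ADT. PP sham was highest, PPK sham next, and both ADT pairs were lowest and overlapped each other. It fell with ADT and age by 0.64 ± 0.08 in PP (SE, limma adjusted p = 0.0012) and by 0.42 ± 0.08 in PPK (adjusted p = 0.0043). In sham mice PPK was below PP by -0.31 ± 0.08 (adjusted p = 0.035). That call did not hold without either PP sham or either PPK sham library (adjusted p of 0.10 to 0.14), nor under TPM scaling (adjusted p = 0.059). Cutal, on the opposite strand over part of the same locus, read 7.89 and 9.34 FPKM in PP sham, 5.27 and 4.72 in PPK sham, 3.87 and 3.56 in PP ADT, and 0.639 and 0.355 in PPK ADT. Whether the counting used strand is not given in the sources used here, so reads of the 2 genes may not be told apart and the Psmd5 values are uncertain.

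Psmd10, also known as gankyrin and X-linked (chrX:140948429-140956728, minus strand), read 12.1 and 12.1 FPKM in PP sham, 11.2 and 10.4 in PPK sham, 9.81 and 10.3 in PP ADT, and 8.30 and 8.70 in PPK ADT. The PPK ADT pair was lowest and the PP sham pair highest. It fell with ADT and age by 0.25 ± 0.06 in PP (limma adjusted p = 0.013) and by 0.31 ± 0.06 in PPK (adjusted p = 0.0030), and it was lower in PPK than in PP in ADT by -0.22 ± 0.06 (adjusted p = 0.014). The call in PP was lost without either PP sham library or PP ADT A (adjusted p of 0.057 to 0.067) and under TPM scaling (0.10), and that between the genotypes without PP ADT B or PPK ADT A (0.072 to 0.074). Psmd9, at 1.43 to 2.39 FPKM the lowest tested member, rose in PPK with ADT and age by 0.32 ± 0.10 (adjusted p = 0.028). That rise was 0.23 without PPK sham B or PPK ADT A (adjusted p = 0.13) and under TPM scaling (adjusted p = 0.084).

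With FPKM as deposited, 12 of the 35 genes passed in no pairwise comparison, 5 of the core and 7 of the regulatory particle. That was 34.3%, against 20.4% of all genes tested and 13.3% of those with a mean of at least 5 FPKM. The share passing in none was not taken under TPM scaling. The 95% intervals of these 12 genes are each for 1 comparison and on the FPKM + 1 scale. They reached 1.13-fold for Psmc6, 1.15-fold for Psmb7 and Psma3, 1.17-fold for Psmd13 and up to 1.56-fold for Psmb2. Those bounds do not hold jointly over the comparisons, and they do not cover the choice of scaling. Nor do they cover differences between mice if libraries A and B share a mouse. Under TPM scaling 18 members passed as lower in PPK than in PP in ADT, 8 core and 10 regulatory. Psma3 and Psmd13 were among them. Their log2 changes there were -0.18 and -0.15 (limma adjusted p = 0.016 and 0.046). The median SE of a pairwise log2 change was 0.06 and the median arm of its interval 0.14, which is the precision that 2 libraries per group gave.

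Around the subunit genes, 32 genes of the ubiquitin and proteasome pathway were tested: 8 passed between the genotypes in sham (3 higher, 5 lower in PPK), 21 in ADT (12 and 9), 14 with ADT and age in PP (6 and 8), 19 in PPK (10 and 9) and 21 for the difference (14 and 7). Those shares, 25%, 65.6%, 43.8%, 59.4% and 65.6%, stand beside 28.6%, 59.6%, 44.2%, 62.6% and 52.8% of all genes. The 4 genes of the immunoproteasome and its interferon-inducible activator, Psmb8, Psmb9, Psme1 and Psme2, moved with Psmb10: 3 were higher in PPK than in PP in sham, 3 rose in PP with ADT and age, and all 4 were lower in PPK ADT than in either PP ADT or PPK sham. The PP rises of Psmb9 and Psme1 were the weakest of these (limma adjusted p = 0.032 and 0.037), and both ended without any 1 of the 4 sham libraries or PP ADT A, and that of Psme1 also without PP ADT B (adjusted p of up to 0.15 for Psmb9 and 0.17 for Psme1). The sham difference of Psme2 (adjusted p = 0.015) ended without PP sham B or PPK sham A (0.069 and 0.078). Psmb8 read 19.0 and 19.6 FPKM in PP sham, 32.7 and 32.0 in PPK sham, 27.5 and 27.8 in PP ADT, and 11.6 and 11.5 in PPK ADT, without overlap between groups. Its log2 change for PPK against PP was 0.72 ± 0.04 in sham and -1.19 ± 0.04 in ADT (limma adjusted p = 4.3e-05 and 8.5e-07). Psmb9 read 3.91 and 3.15 FPKM in PPK ADT against 6.37 to 12.3 elsewhere. The constitutive activator Psme3 was instead higher in PPK than in PP in ADT, by 0.36 ± 0.06 (adjusted p = 0.0019), although under TPM scaling that was 0.15 (adjusted p = 0.076).

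The ubiquitin genes Ubb and Rps27a parted in PPK ADT. Ubb, which encodes a chain of ubiquitin repeats, lay below PP ADT in PPK ADT by -0.36 ± 0.03 (limma adjusted p = 6.3e-05). Ubb read 668 and 660 FPKM in PP sham, 534 and 544 in PPK sham, 433 and 455 in PP ADT, and 346 and 347 in PPK ADT. Its pairs did not overlap, and PPK ADT was the lowest. Rps27a encodes ubiquitin fused to a ribosomal protein and lay above PP ADT in PPK ADT by 1.44 ± 0.15 (adjusted p = 0.00025). It read 219 and 281 in PPK ADT and 76.5 to 96.7 elsewhere. Ubiquitin and ribosomal protein genes have near-identical copies among which reads may be split, so these levels are uncertain. Uba6, a ubiquitin-activating enzyme, exceeded its PP ADT level in PPK ADT by 1.04 ± 0.08 (adjusted p = 6.9e-05), at 9.74 and 10.7 FPKM against 3.57 to 4.75 in the other 6 libraries.

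**Figure D5:**
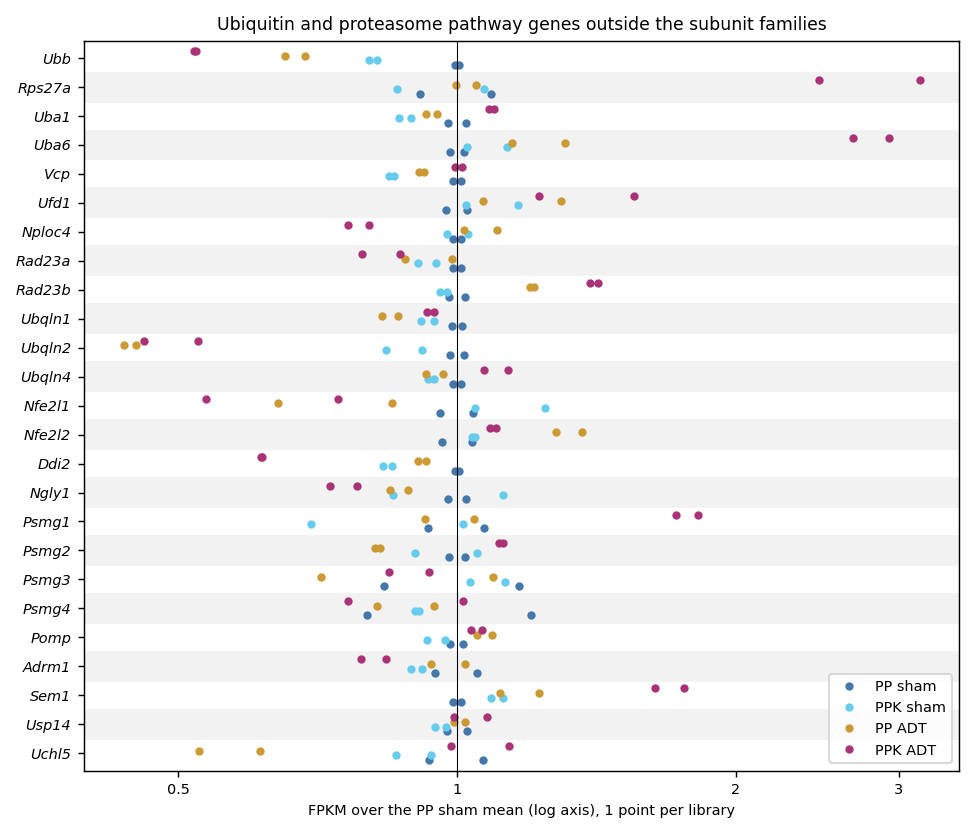
Each point is the FPKM of a pathway gene in 1 library over that gene's mean in PP sham, on a log axis, for ubiquitin, activation, shuttle, assembly, deubiquitinase and regulator genes. In the PPK ADT libraries Rps27a and Uba6 lie far to the right and Ubb to the left of the other libraries.

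Some core assembly and deubiquitinase genes also differed between the genotypes in ADT. The assembly chaperone Psmg1 was higher in PPK by 0.75 ± 0.15 (limma adjusted p = 0.0053), and the proteasome-bound deubiquitinase Uchl5 by 0.74 ± 0.10 (adjusted p = 0.00093). Psmg2, the partner of Psmg1, was higher by 0.38 ± 0.08 (adjusted p = 0.0056), but by 0.19 under TPM scaling (adjusted p = 0.072). Sem1, a small lid subunit whose symbol the Psm rule does not take, was higher by 0.50 ± 0.06 (adjusted p = 0.00053). Adrm1, a ubiquitin receptor of the base, was instead lower by -0.25 ± 0.07 (adjusted p = 0.020), a call lost without PP ADT B or PPK ADT A (adjusted p of 0.10 to 0.11). Pomp, the maturation factor of the core, passed in no comparison with FPKM as deposited and read 10.1 to 11.9 FPKM.

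The regulators did not follow one course. Nfe2l1 read 31.1 and 33.8 FPKM in PP sham, 40.4 and 33.9 in PPK sham, 20.8 and 27.6 in PP ADT, and 24.1 and 17.4 in PPK ADT, and it fell in PPK with ADT and age by 0.82 ± 0.19 (limma adjusted p = 0.0080; 0.050 without PPK sham A). Its pairs were wide, and the change in PP, -0.42 ± 0.19, did not pass (adjusted p = 0.11). Ddi2, the protease that releases Nfe2l1 from the endoplasmic reticulum membrane, was lower in PPK than in PP in sham by -0.24 ± 0.04 and in ADT by -0.54 ± 0.04 (adjusted p = 0.0046 and 3.2e-05). Nfe2l2, a related factor of the oxidative stress response, rose in PP with ADT and age by 0.39 ± 0.05 (adjusted p = 0.0010).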

How the data were processed

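The labels describe Trizol extraction of total RNA and strand-specific TruSeq libraries, and the submitters' processing notes list FastQC 0.11.2 along with mm10 as the build. The FPKM values were computed and deposited by the authors, 1 table per library. How reads were aligned and counted, and whether strand was used, is not given in the sources used here. Counts could not be recovered: the smallest step of FPKM times length implied 17.6 to 25.2 M fragments per library, but only 24.7% to 27.1% of low values lay within 5% of whole multiples, so depth is not given exactly and no counting interval is printed.

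The 8 tables were joined on Ensembl identifiers and named from GENCODE M21 on GRCm38 (55154 of 55335 matched), whose gene coordinates are given. Genes with at least 1 FPKM in at least 2 libraries (14000) were tested on log2(FPKM + 1) in limma 3.58.1 (R 4.3.3). The model held 4 group means and eBayes used a trend, which left 4 residual degrees of freedom plus 2.4 from the prior. Adjusted p-values are Benjamini-Hochberg over those genes, two-sided, with a threshold of 0.05. A log2 change is on the FPKM + 1 scale, which understates changes of low genes. The 5 comparisons were genotype (PPK against PP) within sham and within ADT, treatment with age (ADT against sham) within each genotype, and the genotype effect in ADT minus that in sham. The code was tested on simulated data. Python 3.11.15 with pandas 2.3.3, numpy 2.4.6 and matplotlib 3.10.9 made the tables and figures. Members, pathway lists and the naming rule were chosen with earlier results of these data known. Values in all 8 libraries are given for the catalytic and inducible beta genes, the highest gene of each family, the largest passing change in each direction per comparison and particle, and the 6 smallest adjusted p-values for the difference. Psmd1 and Psmd10, and the pathway genes given per library, were named outside that rule after their values were seen. Some items of the pathway lists and of the genotypes are not reported here. Organoid samples were not analysed here.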

Additional observations from a re-analysis of the deposited data

Results flagged for a closer look

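The genotype effect (PPK against PP) was compared between ADT and sham mice by limma's test of the difference itself. It differed in 11 of the 35 subunit genes (31.4%), against 52.8% of all genes tested. The 4 genes of the immunoproteasome and its activator all passed (100%). The value is the log2 change of PPK against PP in ADT minus that in sham. Among core genes it was -1.39 for Psmb10, 0.66 for Psmb5, 0.50 for Psma7, 0.27 for Psmb1, 0.26 for Psma4 and -0.22 for Psma6. Among regulatory genes it was 0.48 for Psmd2, -0.47 for Psmd8, 0.40 for Psmd7, -0.34 for Psmc2 and 0.23 for Psmc3. Among those 4 immunoproteasome and activator genes it was -1.97 for Psmb9, -1.90 for Psmb8, -0.85 for Psme1 and -0.70 for Psme2. The Psmc3 value lay at the threshold (limma adjusted p = 0.049) and turned to -0.023 with libraries scaled to the same sum (TPM). Leaving out 1 library ended 3 of these calls: that of Psmb1 without any but PP sham B or PPK sham B (adjusted p of 0.057 to 0.087), that of Psma4 without any but PP sham B or PP ADT B (0.062 to 0.096), and that of Psmc3 without any but PP sham A or PP ADT A (0.062 to 0.14). Under TPM the differences of Psma4, Psmb1, Psmd2 and Psmd7 also missed the threshold (adjusted p = 0.95, 0.81, 0.084 and 0.19). The difference was lower for all 5 inducible genes, Psmb8, Psmb9, Psmb10, Psme1 and Psme2. Of the 32 pathway genes tested, 21 passed for the difference (65.6%), 14 higher and 7 lower. The higher ones included Rps27a at 1.49, Uba6 at 0.95 and Psmg1 at 0.95. Groups of 2 libraries are too small to look for single outlying libraries.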

How the results depend on the processing

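Of 56 calls of subunit genes over the 5 comparisons, 25 held under every alternative fit and 31 were lost under at least 1. Those of Psmb10 other than in sham and in PP, and those of Psma7, Psmb5 and Psmd1, held throughout. The count for PPK against PP in sham, 6, became 2 without a filter on low values, 3 with equal sums (TPM), 2 without the mean-variance trend and 0 with at least 1.5-fold. Over all genes in sham, 1807 were higher and 1902 lower of 31172 without the filter. Of 14000 genes, 2132 and 1772 were so with TPM, and 1870 and 1967 without the trend. The count in ADT, 11, became 21 with TPM and 1 with 1.5-fold. Over all 14000 genes TPM gave 3397 higher and 5227 lower there. The 1.5-fold limit left 1 gene for ADT against sham in PP, 1 in PPK and 2 for the difference. Leaving out 1 library gave 1 to 4, 8 to 12, 6 to 11, 10 to 17 and 8 to 10 genes in the 5 comparisons. In sham the count was 1 without PP sham A or either PPK sham library. In PP it was 6 without either PP sham library or PP ADT A, and in PPK 11 without PPK sham B and 10 without PPK ADT A. With the replicate block the counts were 6, 12, 10, 16 and 9; same-lettered libraries deviated together at r of -0.0079 to 0.057, so the letters were not taken as pairs.

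Turned directions came from TPM, except as stated. For PPK against PP in ADT the log2 changes became -0.18 for Psma3, -0.17 for Psma4, -0.15 for Psmc5, -0.15 for Psmd1, -0.15 for Psmd13, -0.029 for Psmd7, -0.21 for Psme4, -0.0021 for Uba1, -0.072 for Ubqln1 and -0.084 for Vcp (-0.085 under quantile normalization). All of these but Psmd7, Uba1 and Ubqln1 passed as lower under TPM. For the difference the log2 values became -0.21 for Psma2 and Psma3, -0.19 for Psmb4, -0.023 for Psmc3, -0.18 for Psmc5, -0.24 for Psmc6, -0.20 for Psmd1, -0.068 for Psme4 and -0.0064 for Ubqln1. All but those of Psmc3, Psme4 and Ubqln1 passed there. For ADT against sham the log2 changes became 0.020 for Psma6, 0.0045 for Psmc5 and 0.00036 for Ddi2 in PP and -0.12 for Ubqln1 in PPK. TPM divides each library by its summed FPKM. The fit of only the groups compared gives no value for the difference. FPKM without counts limits what low genes such as Psmd9 can show.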
